A study of Homo sapiens with 12 samples.

Results

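CREB3L3, a membrane-bound transcription factor of liver, was set beside APOA2 and FGB, which encode plasma proteins that hepatocytes secrete. These are 3 of the 14884 genes named by the array annotation used here, each measured by 1 probe set. They were picked from these same arrays because CREB3L3 was lower with a miR1908-5p mimic while plasma protein genes leaned higher, so their values in the mimic comparison are a description and carry no test. HuH-7, a cell line grown from a human hepatocellular carcinoma, was transfected for 72 h with 9 nM of oligonucleotide by the sample labels, from which the concentration in the methods differs slightly. Of the 4 groups, the mimic group received the miR1908-5p mimic and the mimic control group its control oligonucleotide, the inhibitor group received a hairpin inhibitor directed at miR1908-5p and the inhibitor control group the matching control. Both controls carried the dye Dy547, and all cells were kept in low glucose medium with serum. Each treatment was carried out on 3 occasions (repeats 1 to 3), which gave 3 arrays per group and 12 in all. A single tumour line stands in for hepatocytes here, so the repeats measure the spread between occasions in this line and not between donors.

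CREB3L3, also called CREBH, is made as a precursor held in the membrane of the endoplasmic reticulum. It is carried to the Golgi apparatus, where site-1 and site-2 proteases release its transcription factor domain, as they do for ATF6 and the SREBP proteins. In mouse liver the released form acts on genes of triglyceride handling, fasting metabolism, iron control and the acute phase. APOA2 encodes apolipoprotein A-II, a main protein of high density lipoproteins. FGB encodes the beta chain of fibrinogen, which is assembled with the alpha and gamma chains (FGA, FGG) before secretion and forms the clot when thrombin cuts it.

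The oligonucleotide and the 3 gene starts are shown because the comparison runs between this microRNA and these genes. The mature miR1908-5p sequence from RefSeq (GRCh38.p14, chr11:61815209-61815229, minus strand) is 21 bases long, with its seed, bases 2 to 8, in capitals. The mature forms hsa-miR-663a, hsa-miR-6787-5p and hsa-miR-10396b-5p in the same table share that seed.
hsa-miR-1908-5p: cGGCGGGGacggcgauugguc
The 3 promoters, each 250 bases before to 50 after the start, come from RefSeq (GRCh38.p14) and lie at chr19:4153381-4153680 on the plus strand for CREB3L3, chr1:161223579-161223878 on the minus strand for APOA2 and chr4:154562761-154563060 on the plus strand for FGB. FGB has 2 starts in the table, 31 bases apart, and the downstream start is shown. Capitals mark every match, on either strand, to the letters searched.
CREB3L3 promoter: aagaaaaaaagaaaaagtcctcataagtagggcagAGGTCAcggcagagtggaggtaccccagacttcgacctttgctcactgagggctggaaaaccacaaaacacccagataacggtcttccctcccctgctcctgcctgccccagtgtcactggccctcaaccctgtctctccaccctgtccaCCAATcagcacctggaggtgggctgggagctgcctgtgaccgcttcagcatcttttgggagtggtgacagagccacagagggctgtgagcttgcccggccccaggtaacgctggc
APOA2 promoter: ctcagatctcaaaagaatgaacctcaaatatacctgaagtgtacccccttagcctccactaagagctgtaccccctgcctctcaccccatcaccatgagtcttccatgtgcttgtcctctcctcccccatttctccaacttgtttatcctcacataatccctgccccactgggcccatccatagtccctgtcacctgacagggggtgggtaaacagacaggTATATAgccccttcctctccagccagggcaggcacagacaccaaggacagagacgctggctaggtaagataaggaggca
FGB promoter: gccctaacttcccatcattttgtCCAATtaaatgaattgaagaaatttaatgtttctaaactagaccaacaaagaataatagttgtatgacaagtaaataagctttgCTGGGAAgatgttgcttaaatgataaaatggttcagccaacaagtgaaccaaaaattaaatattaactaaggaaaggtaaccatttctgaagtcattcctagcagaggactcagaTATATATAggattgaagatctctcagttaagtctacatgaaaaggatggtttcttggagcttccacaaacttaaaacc
The CREB3L3 stretch held AGGTCA, a nuclear receptor half-site, at positions -215 to -210 (the start being position 1), and CCAAT at -65 to -61. The APOA2 stretch held TATATA at -29 to -24. In the FGB stretch CTGGGAA, an interleukin-6 element of fibrinogen genes, stood at -143 to -137, CCAAT at -227 to -223, and TATATA in 2 overlapping matches at -28 to -23 and -26 to -21. None of the 3 held TGACGTCA, the cyclic AMP response element bound by CREB factors, nor its first letters TGACG. Among 35116 promoters of this length, AGGTCA was found in 13.8%, CCAAT in 34.6%, TATATA in 3.99%, CTGGGAA in 10.8%, TGACGTCA in 1.85% and TGACG in 24.6%. The G and C content of these stretches was 58.0% for CREB3L3, 53.0% for APOA2 and 33.0% for FGB, against a median of 58.67% over all promoters in the table.

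Values are normalized log2 values per probe set, on which a difference of 1 is a factor of 2. The array medians lay between 4.99 and 5.15. Over its probe sets an array had an SD of 1.95 in mimic repeat 3, 1.98 in mimic control repeat 3, and 2.02 or more, up to 2.06, elsewhere. Of the hepatocyte markers listed, 6 of 9 were named on the array, and their probe sets averaged between 7.61 (APOA1) and 12.98 (AFP). Of markers of other liver and blood cells 7 of 11 were named, with averages between 2.84 (DCN) and 8.30 (CD68), and none of either list was at an unadjusted p under 0.05 in the mimic or the inhibitor comparison. The probe set of the MIR1908 precursor, which does not measure the transfected oligonucleotides, was between 6.68 and 7.12 on all arrays.

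CREB3L3 was lower with the mimic than with its control in each repeat. Its log2 value was 9.62, 9.51 and 7.94 with the mimic in repeats 1, 2 and 3, against 10.57, 10.24 and 9.90 with the mimic control. The highest mimic array lay below the lowest mimic control array, and the mimic array of repeat 3 was far below the other mimic arrays. In RNA from a whole culture, fewer expressing cells and less RNA per cell cannot be told apart. The group means were 9.02 ± 0.94 and 10.24 ± 0.34 (SD, n = 3 each), a difference of -1.22 (standard error 0.44), or 2.33-fold lower. Within repeats 1, 2 and 3 the differences were -0.95, -0.73 and -1.97. Repeat 3 gave the largest of these, and without mimic repeat 3 the difference was -0.67.

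APOA2 and FGB were higher with the mimic. APOA2 was at 12.60, 12.68 and 12.56 in repeats 1, 2 and 3 with the mimic, against 12.26, 12.17 and 12.35 with the mimic control. All 3 mimic arrays lay above all 3 mimic control arrays. The means were 12.61 ± 0.06 and 12.26 ± 0.09 (SD, n = 3 each), a difference of 0.35 (standard error 0.12) and a factor of 1.27. Within the repeats it was 0.35, 0.50 and 0.20. FGB was at 12.52, 12.17 and 12.17 with the mimic, against 12.07, 11.78 and 11.76 with the mimic control. Its groups were also apart, and the shift was much the same on each occasion. The means were 12.29 ± 0.20 and 11.87 ± 0.17 (SD, n = 3 each), a difference of 0.41 (standard error 0.17) and a factor of 1.33, with 0.45, 0.38 and 0.41 within the repeats. Groups that do not overlap were found for 8.86% of all probe sets in this comparison, a background beside which the 3 genes, chosen on it, are read only as a description.

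**Figure D1:**
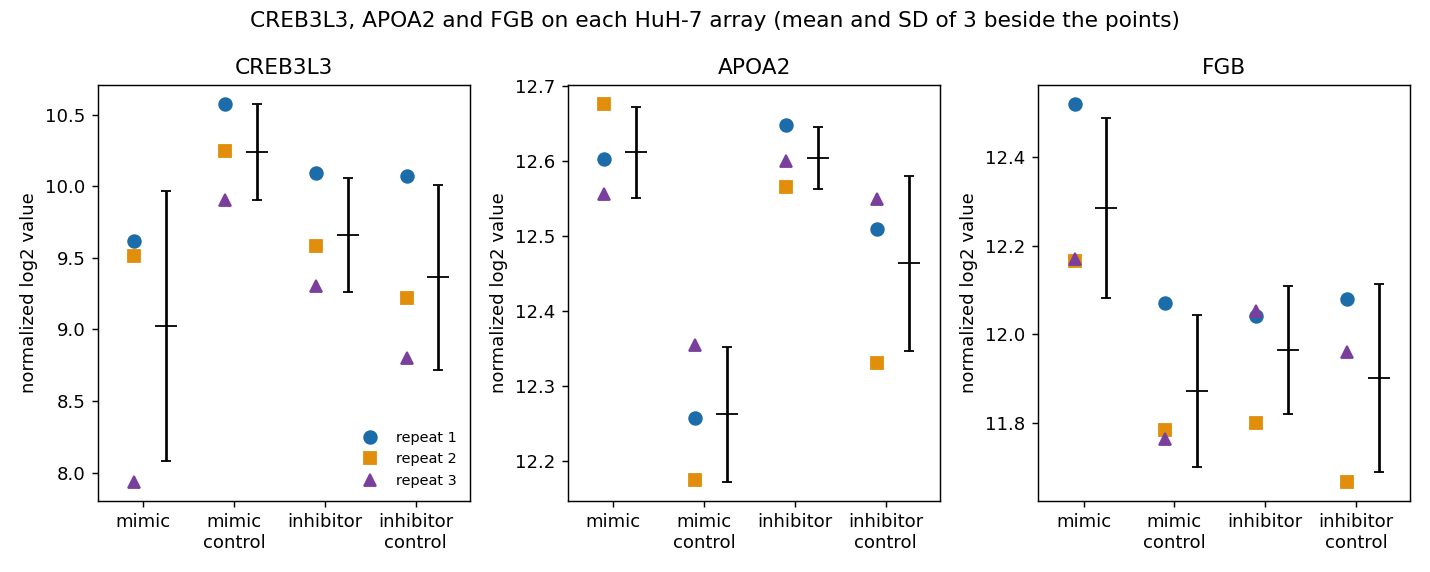
Normalized log2 values (vertical axes, separate scale for each gene) of CREB3L3, APOA2 and FGB on the 12 arrays, by group, with symbols for the repeat and a black bar for the mean and SD of 3 arrays. For CREB3L3 the mimic arrays lie between 7.94 and 9.62 and the mimic control arrays between 9.90 and 10.57, while for FGB the 3 mimic arrays lie above all others.

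The inhibitor arms were not used in choosing the genes and were therefore tested. None of the 3 genes passed the test between inhibitor and inhibitor control in limma after Benjamini-Hochberg adjustment over the whole array, where 0.00187% of the probe sets (1 of 53617) passed an adjusted p of 0.05 and 2.92% an unadjusted one. CREB3L3 was at 10.09, 9.58 and 9.31 in repeats 1, 2 and 3 with the inhibitor, against 10.07, 9.22 and 8.80 with the inhibitor control. The inhibitor arrays were the higher of each pair, by 0.02, 0.37 and 0.50, but the groups overlapped. The difference was 0.30 (95% interval -0.67 to 1.26, adjusted p = 1.00 and unadjusted p = 0.514 in limma), an interval that runs from 0.630-fold to 2.39-fold. With the repeat number as a block in the model, the 95% interval was -0.25 to 0.84 (unadjusted p = 0.254 in limma).

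APOA2 was at 12.65, 12.57 and 12.60 with the inhibitor, against 12.51, 12.33 and 12.55 with the inhibitor control. The groups did not overlap, as for 8.0% of all probe sets in this comparison, and the difference was 0.14 (95% interval -0.13 to 0.41, adjusted p = 1.00 and unadjusted p = 0.270 in limma). It was positive in all 3 repeats, at 0.14, 0.23 and 0.05. FGB was at 12.04, 11.80 and 12.05 with the inhibitor, against 12.08, 11.67 and 11.96 with the inhibitor control. These groups overlapped, and the differences within repeats of -0.04, 0.13 and 0.09 took both signs. The mean difference was 0.06 (95% interval -0.30 to 0.42, adjusted p = 1.00 and unadjusted p = 0.714 in limma), and it was -0.06 without inhibitor control repeat 2.

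CREB3L3 was higher with the mimic control than with the inhibitor control in every repeat, although the groups overlapped. The gap was 0.50, 1.03 and 1.10, with a mean of 0.88 (standard error 0.44). The mimic minus the inhibitor was -0.47, -0.07 and -1.37, with a mean of -0.64. CREB3L3 thus ran, from high to low, as mimic control 10.24, inhibitor 9.66, inhibitor control 9.36 and mimic 9.02, and each neighbouring pair in that order overlapped. APOA2 ran as mimic 12.61, inhibitor 12.60, inhibitor control 12.46 and mimic control 12.26. Its mimic and inhibitor arrays overlapped, with a difference of 0.01 (standard error 0.12), inhibitor and inhibitor control were apart, and inhibitor control and mimic control overlapped. The mimic control was 0.20 below the inhibitor control for this gene. FGB ran as mimic 12.29, inhibitor 11.97, inhibitor control 11.90 and mimic control 11.87, with the last 3 overlapping. Its lowest mimic array, at 12.17, was above the highest of the other 9 arrays, at 12.08, and the mimic exceeded the inhibitor by 0.48, 0.37 and 0.12 in repeats 1, 2 and 3. The mimic contrast was used to choose the genes, so these differences are given with no test.

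**Figure D2:**
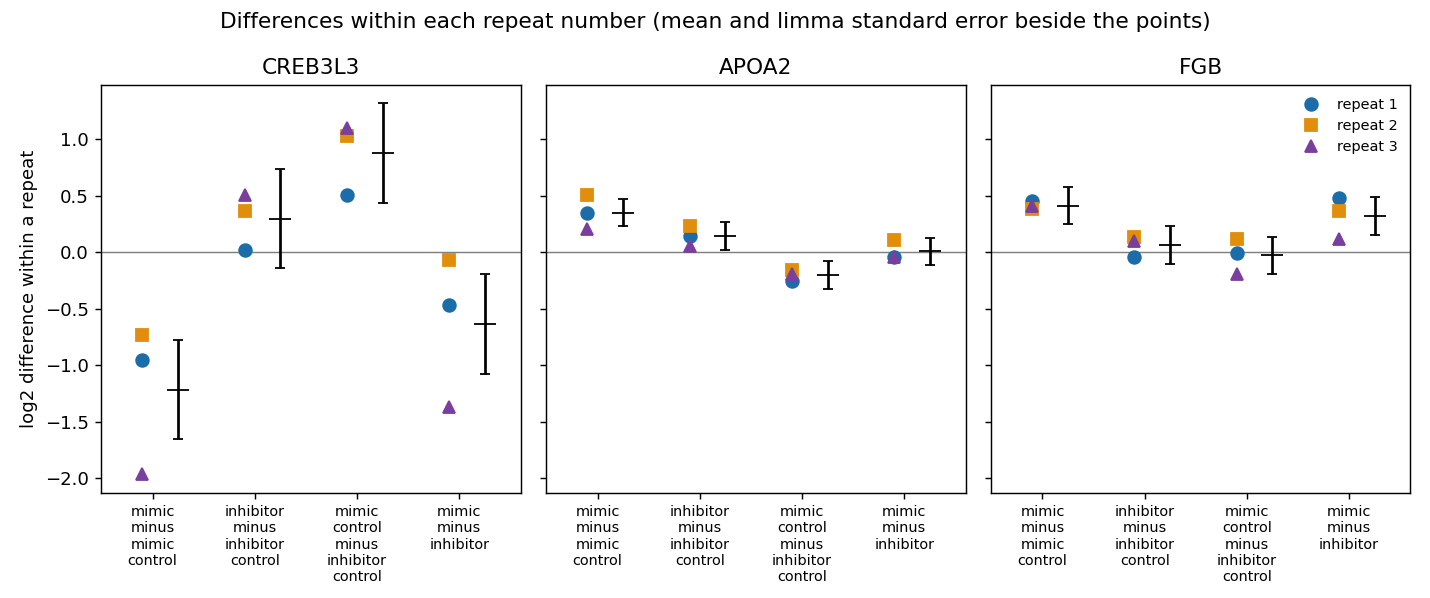
Log2 differences within each repeat number (vertical axis, 1 scale for all genes) for 4 pairs of groups, with black bars for the mean and the standard error from limma. For CREB3L3 mimic minus mimic control runs from -1.97 to -0.73 and mimic control minus inhibitor control from 0.50 to 1.10, while for FGB mimic minus mimic control runs from 0.38 to 0.45.

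CREB3L3 also varied with the occasion. Over the 4 groups it averaged 10.09 in repeat 1, 9.64 in repeat 2 and 8.99 in repeat 3 (n = 4 arrays each). Within each group it was highest in repeat 1 and lowest in repeat 3, and repeat 3 minus repeat 1 was -1.68 with the mimic, -0.67 with the mimic control, -0.78 with the inhibitor and -1.27 with the inhibitor control. The effect of the repeat passed limma's F-test in a model of group and repeat (adjusted p = 0.0398), as it did for 4.97% of all probe sets. The margin was narrow, since 13 of the 15 settings that leave out 1 array or 1 repeat gave adjusted p over 0.05, up to 0.407 without repeat 3 and 0.253 without repeat 1, and the call stood only without mimic repeat 2 or without all of repeat 2. The mimic and mimic control arrays of repeat 3 also had the smallest spread over all probe sets (SD 1.95 and 1.98), and the part of this in the CREB3L3 values was not tested. Of the sum of squares of CREB3L3 over the 12 arrays, 44.2% went with the repeat, 43.2% with the group and 12.6% with neither. The group share holds the mimic comparison on which the gene was picked, so its size follows in part from that choice.

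Neither secreted protein passed the F-test of the repeat. APOA2 averaged 12.50, 12.44 and 12.51 in repeats 1, 2 and 3, and the F-test gave an adjusted p of 0.824 in limma. FGB averaged 12.18, 11.85 and 11.99, with an adjusted p of 0.184, which was 0.0390 with an intensity trend and a robust prior. The group accounted for 81.7% of the sum of squares of APOA2 and 54.4% of that of FGB. These group shares hold the mimic comparison on which the genes were picked, so their size follows in part from that choice. Shares over all probe sets were not computed. The repeat accounted for 4.85% of the sum of squares of APOA2 and 35.5% of that of FGB. With the repeat number as a block, which removes this part, the standard error of the mimic difference became 0.24 for CREB3L3, 0.11 for APOA2 and 0.12 for FGB.

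The other genes of these pathways were taken from 8 lists, which hold 160 different genes besides the 3, of which 96 were named on the array. None passed an adjusted p of 0.05 with the mimic in limma, with or without the repeat as a block, where (without it) 0.0149% of all probe sets (8 of 53617) did. At an unadjusted p under 0.05, 8 of the 96 were higher (8.33%, against 2.20% of all probe sets and 2.08% of named genes) and 3 were lower (3.13%, against 2.41% and 2.73%). That count of 11 was 20 with the repeat as a block, and it was 7 without mimic control repeat 1 and 5 without all of repeat 1 or all of repeat 2. For the 20, neither the split into higher and lower genes nor the share over all probe sets was counted. The median difference of the 96 was 0.10, beside -0.003 over all probe sets. The lists were chosen with earlier results of these data known. A lean of plasma protein genes in this comparison was also part of the reason for picking the 3 genes. The counts and the median with the mimic are therefore no independent evidence. With the inhibitor the median was 0.06, beside 0.001 over all probe sets, none passed the adjusted p and 1 gene, LBP, was at an unadjusted p under 0.05 (1.04%, against 2.92% of all probe sets). Most of all probe sets carry no gene symbol, and no median over named genes alone was computed for either comparison. In all 8 genes that were higher with the mimic, the mimic control also had the lowest mean of the 4 groups. In APOM, CFB and CANX the mimic did not have the highest mean. The 8 were chosen on mimic minus mimic control, which favours a low mimic control. The share over all probe sets was not counted.

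Among relatives of CREB3L3, the SREBP factors and their escort SCAP, 5 of the 9 named were higher and 4 lower with the mimic by sign, with a median of 0.18. CREB3L1, a family member known from matrix-secreting cells, averaged 6.29 ± 0.01 with the mimic and 6.62 ± 0.17 with its control, a difference of -0.33 at an unadjusted p of 0.0494 (adjusted p = 1.00 in limma). Its mimic and mimic control arrays did not overlap. CREB3, the founding member, averaged 8.35 ± 0.03 with the mimic and 8.04 ± 0.04 with its control, a difference of 0.31 at an unadjusted p of 0.0924 with groups that did not overlap. For ATF6 and SREBF2, released by the same proteases, the differences were 0.30 and 0.20 (standard errors 0.25 and 0.15). The 9 differences lay between -0.33 and 0.31, beside the -1.22 (standard error 0.44) of CREB3L3. CREB3L3 was picked for its fall in this comparison, so its place outside that range follows from the choice.

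Genes that CREB3L3 is known to act on, mostly from mouse liver, had positive differences more often than negative ones. Of 21 such genes listed, 14 were named on the array, and CRP and APCS were among those without a named probe set. With the mimic 10 of the 14 had a positive and 4 a negative difference (median 0.20, range -0.62 to 0.54). Of the positive ones, 2 were at an unadjusted p under 0.05 in limma. Several of the 14, such as HAMP, APOA1 and APOA5, encode plasma proteins, whose lean was part of the reason for picking the 3 genes. The signs and the median of this list are therefore no independent evidence. HAMP, which encodes the iron hormone hepcidin, was at 7.22, 7.29 and 6.75 in repeats 1, 2 and 3 with the mimic, against 6.43, 6.63 and 6.59 with its control. The groups did not overlap, and the difference was 0.54 (standard error 0.16, unadjusted p = 0.00549, adjusted p = 0.852 in limma). CPT1A, the gatekeeper of fatty acid entry into mitochondria, had a difference of 0.46 (unadjusted p = 0.0150, adjusted p = 0.943 in limma). INSIG2, which retains SCAP and the SREBP proteins in the endoplasmic reticulum, had a difference of 0.39 and APOA5, an activator of triglyceride lipolysis, one of 0.20, both at an unadjusted p over 0.05. The most negative differences were -0.62 for CIDEC, a lipid droplet protein (standard error 0.54), and -0.35 for APOA4 (standard error 0.67). APOA4 is an apolipoprotein of triglyceride-rich particles. Without the repeat as a block neither reached the unadjusted threshold. With the block, adjusted p in limma was 0.402 for CIDEC and 0.730 for APOA4, beside 0.358 for HAMP and 0.472 for CPT1A. The remaining negative differences were -0.17 for PCK1 and -0.11 for FGF21, both at an unadjusted p over 0.05 in limma. FADS1, whose intron holds the microRNA gene, belongs to this list and had a difference of 0.02. CIDEC, APOA4, PCK1, FGF21 and FADS1 were picked out after their values were seen.

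Of the apolipoproteins and related proteins, 11 of 14 had a positive difference, with a median of 0.18. A lean of plasma protein genes in this comparison was part of the reason for picking the 3 genes, so the signs and medians of the plasma protein lists are no independent evidence. APOC1, an inhibitor of lipoprotein uptake, was at 9.02, 8.68 and 8.43 with the mimic, against 8.05, 8.21 and 7.70 with its control. The mimic arrays were all higher than the control arrays, by 0.72 on average (standard error 0.19, unadjusted p = 0.00267, adjusted p = 0.730 in limma). APOM, the carrier of sphingosine-1-phosphate on high density lipoproteins, had a difference of 0.54 (unadjusted p = 0.0300) and has 7 probe sets, of which the brightest is given. APOH, a phospholipid-binding plasma protein, had a difference of 0.32 without passing.

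In fibrinogen and coagulation, 11 of 16 differences were positive, with a median of 0.11. FGA, a partner chain of FGB, averaged 12.24 ± 0.09 in the mimic group and 12.02 ± 0.10 in its control group (SD, n = 3 each). The groups were apart and the difference was 0.22 (unadjusted p = 0.154). FGG, the remaining chain, was looked up after the values were seen and was at 11.44, 11.24 and 11.40 with the mimic, against 11.30, 11.06 and 11.04 with its control, with overlapping groups and a difference of 0.23 (unadjusted p = 0.226). Beside these stands the 0.41 of FGB, which was picked on this comparison, and the difference between the chains was not tested. FGL1, a hepatocyte-secreted relative of fibrinogen, had a difference of 0.82 (standard error 0.26, unadjusted p = 0.00833, adjusted p = 0.883 in limma), and F9, coagulation factor IX, averaged 2.89 ± 0.18 with the mimic and 3.40 ± 0.44 with its control, near the bottom of the scale (difference -0.51, unadjusted p = 0.0451).

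Of 15 acute phase genes 8 differences were positive and 7 negative (median 0.01). CFB, complement factor B, had a difference of 0.30 (unadjusted p = 0.0498 in limma). C3, the central complement component, had a difference of -0.31. SOCS3, a feedback inhibitor of interleukin-6 signalling, had one of -0.30. C3 and SOCS3 were at an unadjusted p over 0.05. For CFB, C3 and SOCS3 alike the mimic and mimic control arrays did not overlap. The most negative differences were -0.89 for HP, haptoglobin (standard error 0.70), and -0.72 for ORM2, an orosomucoid (standard error 0.42). HP was picked out after its value was seen. Without the repeat as a block neither of these reached the unadjusted threshold. With the block, adjusted p in limma was 0.273 for HP and 0.447 for ORM2, beside 0.631 for CFB. Carrier proteins had 7 of 8 differences positive (median 0.13) and none at the unadjusted threshold. The largest was 0.43 for AHSG, fetuin-A. Liver transcription factors had 7 of 12 positive (median 0.02). HHEX, a homeobox factor of liver development, averaged 8.62 ± 0.12 in the mimic group and 7.89 ± 0.28 in the mimic control group (SD, n = 3 each), a difference of 0.73 at an unadjusted p of 0.00382 (adjusted p = 0.764 in limma). ATF5, a stress-responsive leucine zipper factor abundant in liver, had a difference of -0.39 (unadjusted p = 0.0335).

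Among genes of the secretory pathway and its stress response, 8 of 12 differences were positive (median 0.08). CANX, the membrane chaperone calnexin, was at 11.24, 11.39 and 11.72 with the mimic, against 10.47, 10.61 and 10.87 with its control. It had a difference of 0.80 (unadjusted p = 0.00213, adjusted p = 0.687 in limma, and 0.0661 with the repeat as a block). The inhibitor arms, at 11.34, 11.34 and 11.74 with the inhibitor and 11.30, 11.20 and 11.81 with the inhibitor control, were close to the mimic arrays, so that for CANX, as for APOA2, the mimic control was the lowest group. DDIT3 and ATF3, stress-response factors, had differences of 0.33 and 0.43 at an unadjusted p over 0.05. With the inhibitor, LBP, the lipopolysaccharide-binding protein, had a difference of -0.52 (unadjusted p = 0.0240, adjusted p = 1.00 in limma), at 4.56, 4.62 and 4.48 in repeats 1, 2 and 3 with the inhibitor, against 4.53, 5.45 and 5.21 with the inhibitor control, and it did not reach the unadjusted threshold without inhibitor control repeat 2 or repeat 3.

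**Figure D3:**
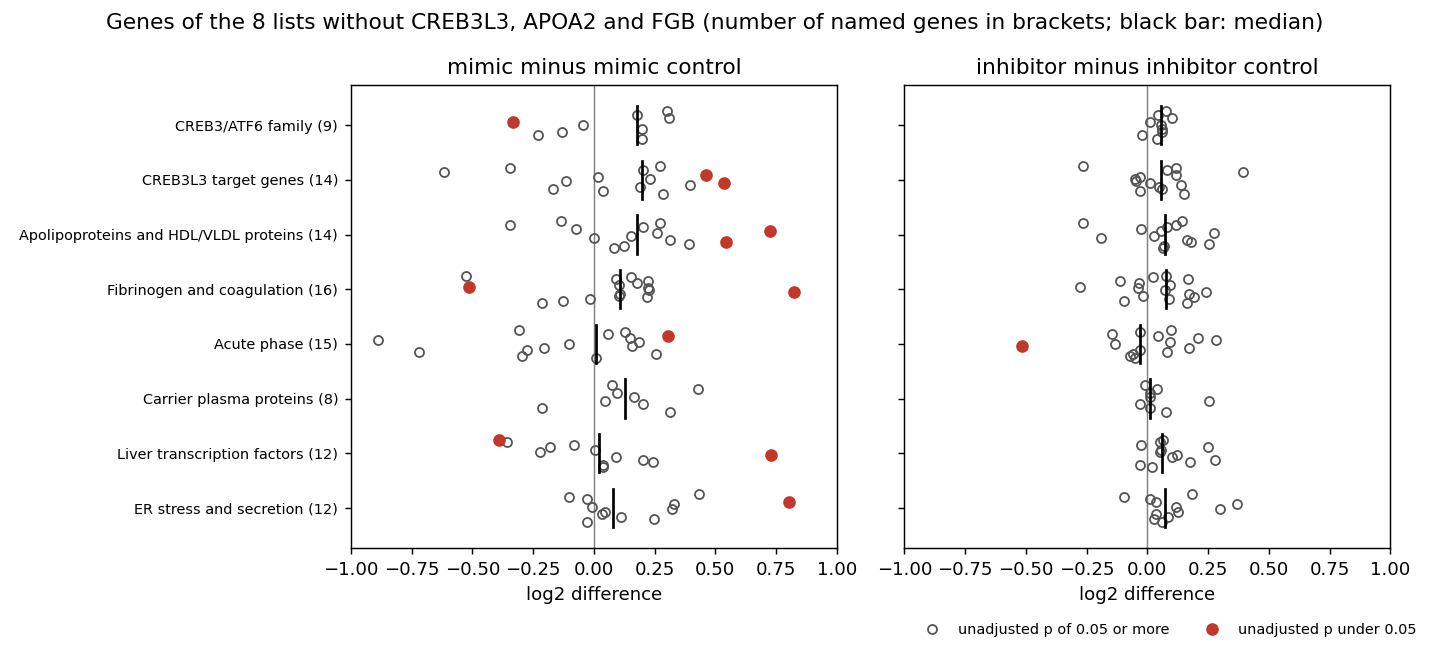
Log2 differences (horizontal axis) of the genes of the 8 lists, mimic minus mimic control at left and inhibitor minus inhibitor control at right, with 1 point per gene, the list median as a black bar and filled points for an unadjusted p under 0.05 in limma. With the mimic 11 of the 96 different genes are filled, 8 of them to the right of 0, and with the inhibitor 1 is filled. A gene that is in several lists appears in each.

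The genes whose pattern over the 12 arrays was most like CREB3L3 were looked for among 11103 probe sets. Each of these carried 1 gene symbol and had a mean at or above the median of all probe sets. These correlations run across arrays that share their treatments and occasions, and they are given as a description. The closest were AADAT, an enzyme of tryptophan and lysine breakdown (Pearson r = 0.97), PLAGL2, a zinc finger transcription factor (0.97), PCDHB16, a protocadherin (0.97), MCM8, a helicase of DNA repair (0.95), and UBQLN2, a ubiquitin-binding shuttle protein (0.95). All 5 had negative differences with the mimic, between -1.14 (PCDHB16) and -0.60 (AADAT), and positive ones with the inhibitor, between 0.21 (UBQLN2) and 0.42 (MCM8). The 5 were picked for their likeness to CREB3L3 on these arrays, so these signs follow from that choice. Over the 6 arrays of the inhibitor arms alone, which are among the 12 on which these genes were picked, their r with CREB3L3 lay between 0.87 (UBQLN2) and 0.996 (MCM8). AADAT was at 7.54, 7.63 and 7.01 in repeats 1, 2 and 3 with the mimic, against 8.21, 7.97 and 7.78 with the mimic control. Like CREB3L3 it had its lowest value on mimic repeat 3.

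Other genes tracked the secreted proteins. ZNF25, a zinc finger protein (r = 0.94), TMEM263, a transmembrane protein (0.93), and TRAPPC10, a subunit of a vesicle tethering complex (0.90), were closest to APOA2, with r over the inhibitor arms of 0.90, 0.91 and 0.59. PDE4DIP, a centrosome and Golgi scaffold (0.95), TM4SF4, a tetraspanin-like membrane protein (0.93), and HPGD, which inactivates prostaglandins (0.93), were closest to FGB, with 0.95, 0.88 and 0.82 over the inhibitor arms. Over the 12 arrays r was 0.56 between APOA2 and FGB, -0.41 between CREB3L3 and APOA2 and -0.12 between CREB3L3 and FGB. CREB3L3, APOA2 and FGB were picked from these same arrays because CREB3L3 was lower with the mimic while plasma protein genes leaned higher. The signs of r between them therefore follow in part from that choice and are no independent evidence.

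**Figure D4:**
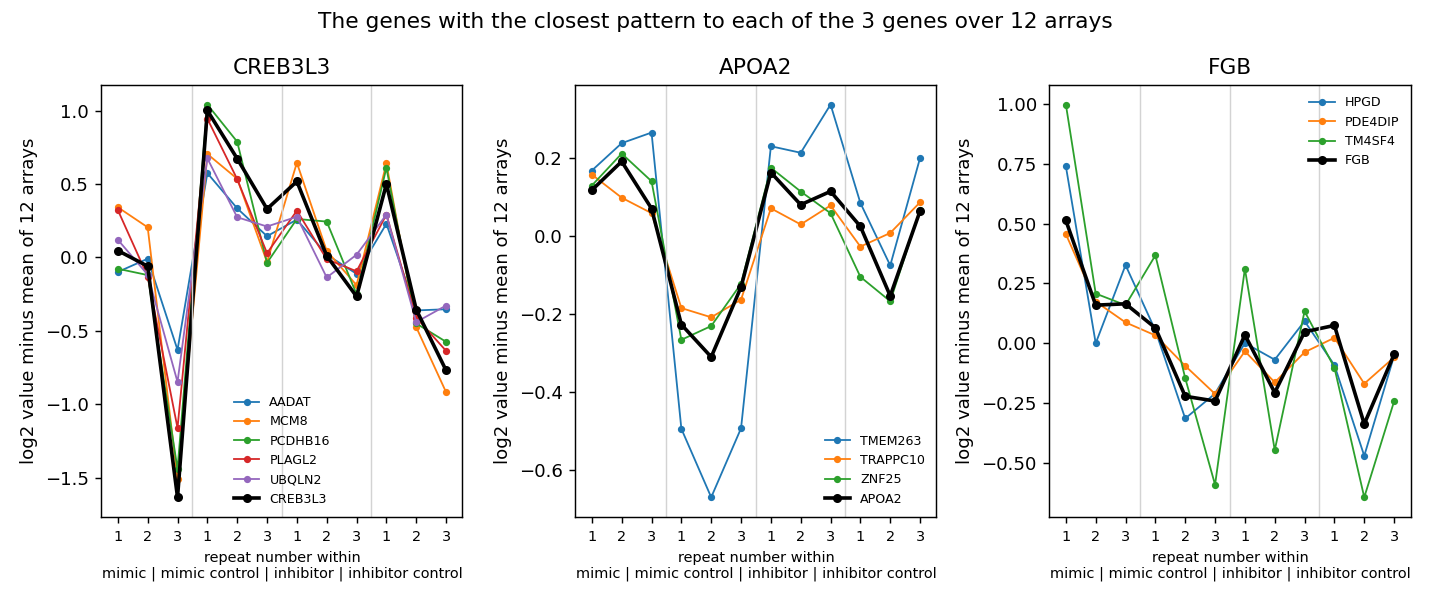
Log2 values minus the mean of 12 arrays (vertical axes, separate scale in each panel) for CREB3L3, APOA2 and FGB in black and the genes with the highest Pearson r to each in colour, over the arrays ordered by group and repeat. The CREB3L3 panel shows the lowest point of every line on mimic repeat 3, the APOA2 panel shows APOA2 lowest on mimic control repeat 2, and the FGB panel shows its highest point on mimic repeat 1.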

How the data were processed

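Total RNA from 12 HuH-7 cultures was hybridized to Affymetrix HuGene-2_0-st arrays. The authors deposited normalized log2 values, 1 for each probe set on each array, from Affymetrix Expression Console (version and settings not given in the sources used here). These values were used without further scaling. The deposited table has 53617 probe sets, of which 16098 carry 1 gene symbol (14884 different symbols), none several and 37519 none in the platform annotation, so a listed gene may be present without a name. A gene with several probe sets was represented by the one with the highest mean.

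Differences were tested two-sided with limma 3.58.1 (lmFit and eBayes, with R 4.3.3 and statmod 1.5.0). The model held all 12 arrays in 4 groups, and p-values were adjusted by Benjamini-Hochberg over every probe set, at a threshold of 0.05. The repeat was tested by limma's F-test in a model of group and repeat. The script was tested on simulated data. The 3 genes, the lists and the naming rule were chosen with earlier results of these data known. The rule names, per list, up to 4 genes with the lowest p for the mimic and 2 for the inhibitor, and the 5 genes most correlated with CREB3L3 and 3 each for APOA2 and FGB.

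By the series' design a repeat number marks an occasion. Once group means were taken out, the median correlation was 0.24 between arrays that share a number (18 pairs) and -0.14 between those that do not (36 pairs), so the number served as a block in an alternative. Further alternatives were array weights, an intensity trend combined with a robust prior, quantile normalization run anew, arrays shifted to a common median, a filter on dim probe sets, a model of the 6 arrays compared alone, the two-tailed test named in the methods, and each array or repeat left out. The number of arrays limits the precision. Promoters and the microRNA came from RefSeq tables (GRCh38.p14), in which all 3 genes and the microRNA matched. Predicted target sites, primary hepatocytes and protein measurements were not analysed here.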

Additional observations from a re-analysis of the deposited data

How the results depend on the processing

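For the inhibitor comparison, CREB3L3, APOA2 and FGB stayed short of the adjusted threshold under every alternative run, with adjusted p of 0.973 and above, and the lowest unadjusted p was 0.119. The differences lay between 0.02 and 0.65 for CREB3L3, 0.07 and 0.19 for APOA2, and -0.055 and 0.15 for FGB over the settings that leave out 1 array or repeat, and FGB was negative only without inhibitor control repeat 2. Blocking on the repeat number gave adjusted p of 0.978, 0.978 and 0.986 for CREB3L3, APOA2 and FGB, and the block changed no call of the 3. For the mimic, described with no test, CREB3L3 ranged over the left-out settings between -1.52 and -0.67, APOA2 between 0.27 and 0.42 and FGB between 0.30 and 0.51, and array weights gave -0.88 for CREB3L3 and 0.42 for APOA2.

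The repeat effect of CREB3L3 had adjusted p between 0.0276 and 0.407 over the left-out settings and between 0.0131 and 0.0374 over the others. That of FGB reached an adjusted p of 0.0390 with an intensity trend and a robust prior, and its left-out range was 0.198 to 0.645. For APOA2 the sign of repeat 3 minus repeat 1 turned with renewed quantile normalization (adjusted p 0.569) and a common median (0.830), and over the left-out settings, where it turned in 4, adjusted p was 0.645 to 0.971. Listed genes at an unadjusted p under 0.05 with the mimic numbered 11, 20 with the repeat block, 6 with only the 6 arrays compared, and 5 to 12 when an array or repeat was left out. With the inhibitor they numbered 1, and 0 without dim probe sets or with only the 6 arrays compared, and 0 to 1 when an array or repeat was left out. The cause of these changes was not tested, and shares over all probe sets were not counted under the alternatives. With 3 arrays per group the median standard error of a mimic difference over all probe sets was 0.20.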
